A study of Mus musculus with 24 samples.

Results

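Newly made RNA of pachytene spermatocytes was compared with that of spermatogonia in sorted cells of the mouse testis. The 7 libraries of this comparison, 3 of spermatogonia and 4 of pachytene spermatocytes, are part of a series of 24 libraries that also covers preleptotene and leptotene cells and total RNA. Each library's values were taken without spike-in rows and rescaled to the same sum, so they describe the composition of the labelled RNA and not its amount. A gene was tested if it reached 1 rescaled FPKM (read fragments scaled by transcript length and library size) in 2 or more of the 7 libraries, which held for 14248 of the 52231 rows that are not spike-ins. All animals were wild-type NMRI mice, an outbred stock, whose spermatogenesis had been synchronised with WIN18,446, which blocks the making of retinoic acid, and then restarted with that vitamin A derivative. At 24 days post-partum each received 2 mg of 5-ethynyl uridine (EU), a uridine analogue built into RNA while it is being made, and cells were collected 3 h later and separated by their DNA content. Spermatogonia libraries 1 and 2 came from the animal numbered 7 and library 3 from animal 5, while pachytene libraries 1 and 3 came from animal 6 and libraries 2 and 4 from animal 8. No animal gave both stages, so the stage and the animal cannot be told apart, and libraries of the same animal were averaged to give 2 against 2.

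Spermatogonia are the mitotic germ cells of the testis, among which a few undifferentiated cells act as stem cells and the rest differentiate in response to retinoic acid. In pachytene, the long stage of meiotic prophase in which homologous chromosomes are fully synapsed, spermatocytes turn on much of the programme that later builds the sperm, and the factor A-MYB (Mybl1) is known as its main activator together with that of the pachytene piRNA precursors. The X and Y chromosomes remain largely unsynapsed and are enclosed in the sex body, where their transcription is shut off, a process called meiotic sex chromosome inactivation. Labelling RNA with EU reads what was transcribed in the hours before the collection, whereas total RNA also holds what had been stored.

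The stage labels were compared with 3 marker genes. Piwil1, a PIWI protein that binds pachytene piRNAs, lay at 1.57, 0.758 and 0.853 FPKM in the spermatogonia libraries and 96.3, 102, 18.7 and 97.2 FPKM in the pachytene libraries. Its pachytene minus spermatogonia difference, on the scale of log2(rescaled FPKM + 1) used for all differences here, was 5.06 (SE 0.43, adjusted p = 0.00052) in limma with Benjamini-Hochberg adjustment over all tested genes. All 4 pachytene libraries lay above all 3 spermatogonia libraries, with library 3 far below the other pachytene libraries. Pgk2, the phosphoglycerate kinase of meiotic and later germ cells, lay at 0.0656, 0.0964 and 0.248 FPKM in the spermatogonia libraries and 20.4, 8.73, 28.4 and 20.3 FPKM in the pachytene libraries, a difference of 4.03 (SE 0.33, adjusted p = 0.00048). Gfra1, the co-receptor for GDNF on undifferentiated spermatogonia, lay at 12.5, 13.1 and 6.34 FPKM in the spermatogonia libraries and 0.276, 0.1704, 0.834 and 0.283 FPKM in the pachytene libraries, a difference of -2.88 (SE 0.36, adjusted p = 0.0014). The 3 markers followed the labels without overlap of the stages. Beside the germ cell markers, the spermatogonia libraries held RNA of testis somatic cells, which is described with the largest falls, and in such bulk samples fewer cells of a type and less RNA per cell cannot be told apart.

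Pachytene library 3 stood apart from the others of its stage. Spearman's rho over the tested genes was 0.83 to 0.85 with the other pachytene libraries, which had 0.90 to 0.93 among themselves. Spermatogonia libraries correlated at 0.88 to 0.92 and the 2 stages at 0.072 to 0.32. The 308 genes that fell and had a spermatogonia mean of at least 20 FPKM had a median of 6.74 FPKM in library 3 against 2.37 to 3.95 FPKM in pachytene libraries 1, 2 and 4. Implied depth, rounded, was 5130000 to 10190000 reads a library, so that 1 FPKM over 1500 bases stood for 7.69 to 15.3 reads. Spike-in rows held 8.86% to 76.5% of the deposited values, and 8357 to 12332 genes reached 1 FPKM before rescaling.

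The nascent libraries had not been depleted of ribosomal RNA, per the labels. Ribosomal rows and rows of under 200 exon bases together held 59.8% to 71.1% of the rescaled FPKM, which divides by length and so is no share of RNA mass. They held 71.1, 70.8 and 68.1% in the spermatogonia libraries and 65.0, 66.7, 70.5 and 59.8% in the pachytene libraries, with overlap of the stages. The 45S precursor row (Rn45s, merged with Gm26917 in the files) held 12.9, 13.9 and 15.9% of the rescaled sum in the spermatogonia libraries and 11.1, 11.3, 12.2 and 9.01% in the pachytene libraries. Ribosomal rows together, with the 5S copies, had means of 14.7% ± 1.76 and 10.9% ± 1.07 (SD, n = 2 animals), which did not overlap between libraries; the two-sided exact permutation p was 0.333, the smallest that 2 against 2 animals can give. Predicted microRNA row Gm23935, only 57 bases long, held 34.8% to 46.1% with overlap of the stages. Rescaling to a sum without the ribosomal rows and rows of under 200 exon bases, tried after seeing the data, moved the median difference of all genes from -0.22 to -0.36.

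**Figure D1:**
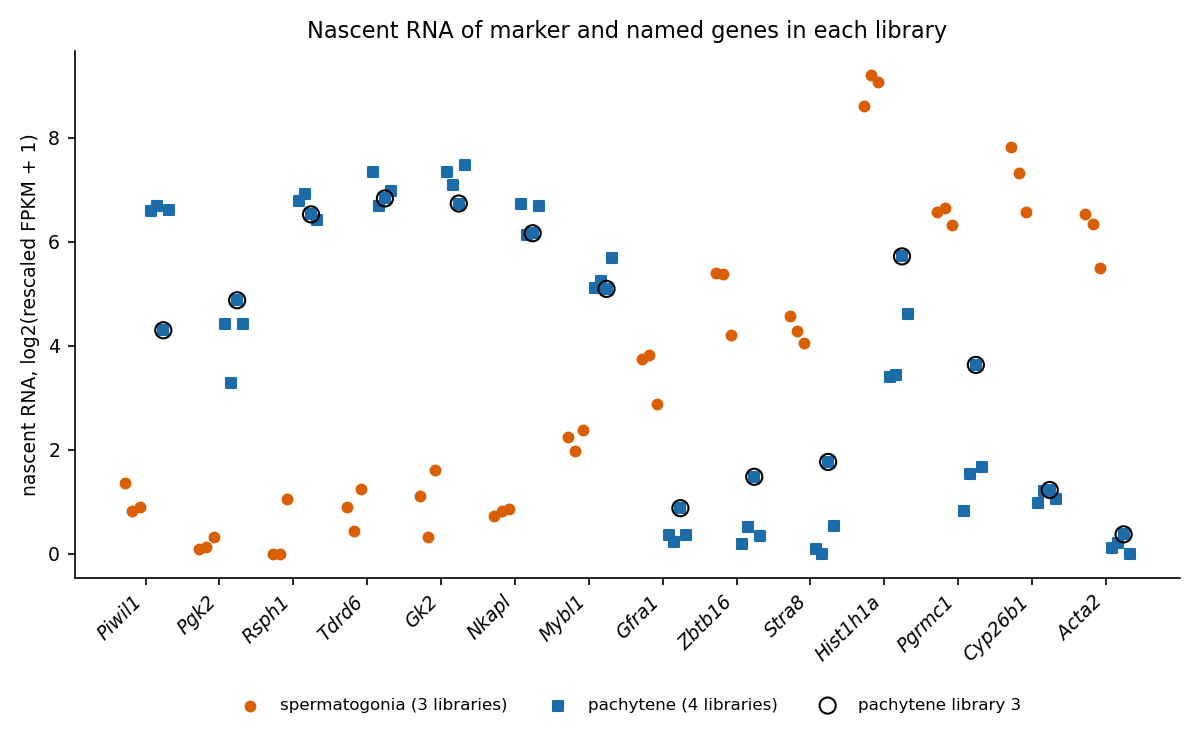
Nascent RNA of 14 genes in each library, as log2(rescaled FPKM + 1), with spermatogonia libraries as circles and pachytene libraries as squares. The stages do not overlap for any of these genes, and pachytene library 3 (ringed) lies low for Piwil1 and high for Stra8, Zbtb16, Hist1h1a and Pgrmc1 among the pachytene libraries.

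In pachytene, 3637 genes were higher (25.5% of those tested) and 4925 were lower (34.6%) at an adjusted p under 0.05, so 60.1% of the tested genes were called. The median difference of all tested genes was -0.22, and the median size among called genes was 1.53. Differences of 4 log2 units or more were found for 273 higher and 60 lower genes. Without pachytene library 3 the counts were 3830 and 5130. Counts rested on each animal: without spermatogonia library 3, the only one of animal 5, they were 2364 and 3573, without animal 7 2915 and 1918, without animal 6 2253 and 2105, and without animal 8 2023 and 1954. Scaled by the spike-ins instead, limma called 0 genes, with 58 at an unadjusted p under 0.05 and a median difference of -1.15, so no statement on amounts of nascent RNA is made. The median of ratios scaling moved the median of all genes to -0.022 with 4193 higher and 4385 lower genes.

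With predicted genes, clone names and small RNA rows left out, the 12 largest rises included an axoneme gene and a germ granule gene. Rsph1, a radial spoke protein of the axoneme, lay at 0, 0 and 1.07 FPKM in the spermatogonia libraries and 109, 119.6, 91.4 and 85.2 FPKM in the pachytene libraries, a difference of 6.14 (SE 0.39, adjusted p = 0.00033). Tdrd6, a tudor protein of the chromatoid body, lay at 0.868, 0.347 and 1.36 FPKM in the spermatogonia libraries and 161, 103, 113 and 126 FPKM in the pachytene libraries, a difference of 6.01 (SE 0.31, adjusted p = 0.00032). Every pachytene library lay far above every spermatogonia library for both. Pabpc2 and Pabpc6, intronless poly(A)-binding protein genes, differed by 6.09 and 5.86, and Csl, a citrate synthase-like gene, by 5.76. The remaining genes among these 12 were Gk2 at 6.001, Aym1 at 5.94, Morc2b at 5.92, Eid3 at 5.89, Qrich2 at 5.77, Spata4 at 5.75 and Cox8c at 5.65. Spermatogonia libraries held at most 3.19 FPKM of any of these 12 genes and pachytene libraries at least 29.9 FPKM. Among the rows left out, some of which are described with the noncoding genes, differences were larger still. The predicted gene Gm10800 lay at 3.21, 9.09 and 2.11 FPKM in the spermatogonia libraries and 117, 200.2, 233 and 6471 FPKM in the pachytene libraries, with library 4 far above the rest, and differed by 6.59 (SE 0.91, adjusted p = 0.0019). Gm10800 missed the threshold without spermatogonia library 3 (adjusted p = 0.059).

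Genes of undifferentiated spermatogonia were mostly lower in pachytene nascent RNA. Of 22 listed genes 16 passed the level filter. Of these 13 fell and 1 rose (81.25% and 6.25%, against 34.6% and 25.5% of all tested genes). The median difference was -2.42 against -0.22 for all genes. Zbtb16 (PLZF), a transcription factor needed for the upkeep of these cells, lay at 41.4, 40.9 and 17.5 FPKM in the spermatogonia libraries and 0.131, 0.423, 1.79 and 0.265 FPKM in the pachytene libraries, a difference of -4.18 (SE 0.44, adjusted p = 0.00084). The stages did not overlap. Sall4 and the X-linked Sox3, also transcription factors of early germ cells, differed by -3.77 and -3.58. Id4, an inhibitor of helix-loop-helix factors used as a marker of stem spermatogonia, went the other way: it lay at 2.33, 2.62 and 1.56 FPKM in the spermatogonia libraries and 31.7, 33.3, 16.8 and 45.3 FPKM in the pachytene libraries, a difference of 3.38 (SE 0.35, adjusted p = 0.00081). Between the same libraries the summed level of peritubular and vascular markers went from 132 to 239 FPKM in spermatogonia to 1.59 to 3.89 FPKM in pachytene, and their part in these falls was not tested.

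Of the 14 listed genes of differentiating spermatogonia all were tested. Of these 10 fell and 0 rose (71.4% and 0%, against 34.6% and 25.5% of all tested genes), with a median of -2.26. Dmrt1, which holds spermatogonia back from meiosis, lay at 35.4, 47.9 and 37.8 FPKM in the spermatogonia libraries and 0.292, 0.866, 4.04 and 0.905 FPKM in the pachytene libraries, a difference of -4.205 (SE 0.28, adjusted p = 0.00034). The receptor tyrosine kinase gene Kit lay at 8.56 to 13.2 FPKM in spermatogonia, 0.0838 to 0.177 FPKM in pachytene libraries 1, 2 and 4, and 0.944 FPKM in library 3, a difference of -3.26 (SE 0.28, adjusted p = 0.00053). Pachytene library 3 held the highest pachytene value of both genes and still lay below the spermatogonia. Cyclin genes Ccnd1 and Ccnd2 differed by -3.58 and -3.41.

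Replication and mitosis genes fell less uniformly. Of 35 tested among 39 listed, 22 fell and 1 rose (62.9% and 2.86%, against 34.6% and 25.5% of all tested genes), with a median of -0.90. The replicative helicase subunits Mcm4 and Mcm2 differed by -3.68 and -2.72, and the S-phase regulator E2f2 by -2.53. Mcm4 lay at 21.2 to 23.5 FPKM in spermatogonia, 0.327 to 0.618 FPKM in pachytene libraries 1, 2 and 4, and 2.58 FPKM in library 3. The 1 gene that rose was Uhrf1, which guides maintenance DNA methylation, at 1.81, 8.65 and 3.19 FPKM in the spermatogonia libraries and 12.7, 9.62, 12.6 and 14.7 FPKM in the pachytene libraries and a difference of 1.51 (SE 0.26, adjusted p = 0.0041), or -0.14 under spike-in scaling. Mki67, a marker of cycling cells, lay at 14.4, 15.98 and 29.9 FPKM in the spermatogonia libraries and 5.83, 11.7, 28.2 and 8.73 FPKM in the pachytene libraries with overlap of the stages, and its difference of -0.83 (SE 0.38, adjusted p = 0.11) did not pass the test. Without pachytene library 3 it was -1.36 (adjusted p = 0.035), a fall. Uhrf1 missed the threshold without spermatogonia library 1 (adjusted p = 0.084).

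Replication-dependent histone genes, whose RNA is made in S phase, mostly fell. Of 57 tested rows 48 fell and 4 rose (84.2% and 7.02%, against 34.6% and 25.5% of all tested genes), with a median of -2.36. The linker histone gene Hist1h1a lay at 393, 594 and 536 FPKM in the spermatogonia libraries and 9.62, 9.77, 51.8 and 23.3 FPKM in the pachytene libraries, a difference of -4.704 (SE 0.30, adjusted p = 0.00033), and Hist1h1c differed by -4.51. Among the rows that rose were Hist2h2be and Hist2h2ac, an H2B and an H2A gene, at 3.66 and 2.61. Hist2h2be lay at 1.76, 2.201 and 1.62 FPKM in the spermatogonia libraries and 50.7, 19.1, 35.2 and 40.4 FPKM in the pachytene libraries. Histone copies are alike in sequence, and how reads shared by copies were counted is not given in the sources used here.

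Of 10 tested testis histones and variants 2 rose and 3 fell (20% and 30%, against 25.5% and 34.6% of all tested genes). The testis linker histone Hist1h1t, known from pachytene, lay at 4.697, 4.53 and 6.21 FPKM in the spermatogonia libraries and 115, 188, 78.4 and 167 FPKM in the pachytene libraries, a difference of 4.36 (SE 0.38, adjusted p = 0.00055). H1fx rose by 5.15, with 24.9, 0 and 0 FPKM in spermatogonia against 73.5 to 86.04 FPKM in pachytene. The testis H2A gene Hist1h2aa and the linker histone H1f0 fell by 2.84 and 2.69. Hist1h2aa was among the more abundant of these genes, at 249 to 368 FPKM in spermatogonia and 26.6 to 56.6 FPKM in pachytene. H1fx missed the threshold without spermatogonia library 2 (adjusted p = 0.056).

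Genes of meiotic entry and of double-strand break formation showed no common direction. Of 22 tested among 25 listed 6 rose and 5 fell (27.3% and 22.7%, against 25.5% and 34.6% of all tested genes), and the median of -0.14 lay beside that of all genes and changed sign under the median of ratios scaling. Spo11, the topoisomerase-like protein that makes the breaks, lay at 0.755, 0.353 and 0.337 FPKM in the spermatogonia libraries and 9.401, 10.1, 5.91 and 8.23 FPKM in the pachytene libraries, a difference of 2.69 (SE 0.24, adjusted p = 0.00059). Meiob, which binds single-stranded DNA at the breaks, rose by 1.84. Stra8, the retinoic acid target that opens meiosis, lay at 22.9, 18.4 and 15.6 FPKM in the spermatogonia libraries and 0.07001, 0, 2.398 and 0.449 FPKM in the pachytene libraries, a difference of -3.64 (SE 0.32, adjusted p = 0.00057). Without pachytene library 3 the number that rose was 3. Meiob missed the threshold without spermatogonia library 3 (adjusted p = 0.052).

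In 2 genes of this list pachytene library 3 lay within or above the range of spermatogonia. Prdm9, the histone methyltransferase that places the breaks, lay at 8.27, 10.4 and 12.03 FPKM in the spermatogonia libraries and 0.536, 0.305, 12.04 and 0.5797 FPKM in the pachytene libraries. Its difference was -2.19 (SE 0.54, adjusted p = 0.015) with overlap of the stages, and -3.003 (adjusted p = 0.00051) without library 3. Dmc1, the meiotic recombinase, lay at 6.44, 10.3 and 15.3 FPKM in the spermatogonia libraries and 1.43, 0.709, 20.1 and 0.721 FPKM in the pachytene libraries; the difference of -1.804 (SE 0.69, adjusted p = 0.064) did not pass the test, and without library 3 it was -2.61 (adjusted p = 0.0023). The other 3 pachytene libraries held little of both RNAs. Prdm9 missed the threshold without spermatogonia library 3 (adjusted p = 0.17) and without pachytene library 1 (adjusted p = 0.27).

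Among genes of the chromosome axis, the synaptonemal complex and cohesin, 8 of 15 fell and 2 rose (53.3% and 13.3%, against 34.6% and 25.5% of all tested genes). Their median was -1.02. Sycp2, an axial element protein, lay at 5.23, 5.08 and 10.1 FPKM in the spermatogonia libraries and 31.8, 27.1, 27.8 and 18.9 FPKM in the pachytene libraries, a difference of 1.704 (SE 0.37, adjusted p = 0.0094). Syce1 of the central element rose by 1.197; under spike-in scaling both lay below 0, at -0.15 and -0.53. Cohesin subunits Rad21 and Smc3, which also serve mitosis, fell by 2.86 and 2.76. Sycp3, the partner of Sycp2 in the axial element, lay at 4.11, 11.5 and 6.61 FPKM in the spermatogonia libraries and 3.96, 10.1, 12.6 and 2.39 FPKM in the pachytene libraries, with overlap and a difference of -0.14 (SE 0.27, adjusted p = 0.69). Sycp1, the transverse filament protein, lay at 6.4005, 3.99 and 8.74 FPKM in the spermatogonia libraries and 0.299, 2.13, 7.07 and 1.06 FPKM in the pachytene libraries and differed by -1.42 (SE 0.32, adjusted p = 0.011). Smc3 missed the threshold without spermatogonia library 3 (adjusted p = 0.067) and without pachytene library 1 (adjusted p = 0.064). Sycp1 missed the threshold without spermatogonia library 3 (adjusted p = 0.093) and without pachytene library 1 (adjusted p = 0.32).

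Crossover factors had 3 rises and 2 falls among 12 tested (25% and 16.7%, against 25.5% and 34.6% of all tested genes), with a median of 0.042 whose sign changed with the scaling. Prr19 and Cntd1, which act together in marking crossover sites, rose by 2.37 and 1.48, the latter being -0.074 under spike-in scaling. Prr19 lay at 5.85, 4.89 and 5.099 FPKM in the spermatogonia libraries and 38.6, 24.8, 28.3 and 35.02 FPKM in the pachytene libraries. Among those that fell was the X-linked Tex11 at -1.87.

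Transcription regulators of pachytene, labelled as activators in the plot of the lists, were mostly higher. Of 17 tested 12 rose and 4 fell (70.6% and 23.5%, against 25.5% and 34.6% of all tested genes), with a median of 2.37. Mybl1 (A-MYB) lay at 3.73, 2.94 and 4.1996 FPKM in the spermatogonia libraries and 33.5, 36.995, 33.2 and 50.3 FPKM in the pachytene libraries, a difference of 3.04 (SE 0.28, adjusted p = 0.00063). Nkapl and Kctd19, both needed for passage through pachytene, rose by 5.61 and 4.33. Nkapl lay at 0.6598, 0.7595 and 0.811 FPKM in the spermatogonia libraries and 105, 68.8, 70.8 and 102 FPKM in the pachytene libraries, near 0 in every spermatogonia library. Taf7l, an X-linked paralogue of a TFIID subunit, lay at 36.4, 39.04 and 36.03 FPKM in the spermatogonia libraries and 0.9698, 0.719, 20.5 and 0.724 FPKM in the pachytene libraries, a difference of -3.499 (SE 0.61, adjusted p = 0.0044), and of -4.399 (adjusted p = 0.00035) without library 3. Hsf2, a heat-shock factor, fell by 1.37. Taf7l missed the threshold without spermatogonia library 3 (adjusted p = 0.081) and without pachytene library 1 (adjusted p = 0.092).

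The PIWI and piRNA pathway had 10 rises and 3 falls among 24 tested of 27 listed (41.7% and 12.5%, against 25.5% and 34.6% of all tested genes). Its median was 0.86 (-0.54 under spike-in scaling). Its largest rises were Tdrd6 and Piwil1, given above. Btbd18, which promotes transcription of pachytene piRNA precursors, lay at 14.7, 13.97 and 16.8 FPKM in the spermatogonia libraries and 0.591, 1.73, 3.19 and 0.944 FPKM in the pachytene libraries, a difference of -2.76 (SE 0.25, adjusted p = 0.00059). Tex15, a factor of transposon silencing and of break repair, lay at 32.3, 38.9 and 54.3 FPKM in the spermatogonia libraries and 2.11, 2.81, 35.1 and 2.04 FPKM in the pachytene libraries; its difference was -2.902 (SE 0.57, adjusted p = 0.0065), and -3.81 (adjusted p = 0.00049) without library 3. Tex15 missed the threshold without spermatogonia library 3 (adjusted p = 0.11) and without pachytene library 1 (adjusted p = 0.16).

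Metabolic isozymes made only or mainly in the testis rose together. Of 13 tested among 17 listed 12 rose and 0 fell (92.3% and 0%, against 25.5% and 34.6% of all tested genes). The median of 4.51 was the highest of the 28 lists. Members such as Ldhc and Pgk2 passed the level filter only through pachytene. Ldhc, the lactate dehydrogenase of germ cells, lay at 0.7602, 0 and 0.699 FPKM in the spermatogonia libraries and 17.1, 21.98, 121 and 26.2 FPKM in the pachytene libraries, a difference of 4.51 (SE 0.37, adjusted p = 0.00047); library 3 was the highest. The somatic subunit genes moved in opposite directions: Ldha lay at 2.87 to 3.96 FPKM in spermatogonia and 12.8 to 43.3 FPKM in pachytene and rose by 2.799, while Ldhb lay at 2.63 to 5.45 FPKM in spermatogonia and 0 to 0.201 FPKM in pachytene and fell by 1.997. Cox8c, a cytochrome oxidase subunit of the testis, lay at 1.84, 1.604 and 3.19 FPKM in the spermatogonia libraries and 163, 174, 193 and 148 FPKM in the pachytene libraries. The 1 member that was not called was Slc25a31, an ADP/ATP carrier, at 21.9 to 34.5 FPKM in spermatogonia and 16.3 to 22.5 FPKM in pachytene and a difference of -0.51 (SE 0.30, adjusted p = 0.19).

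Several of these enzymes are autosomal retrogenes, mostly intronless copies of X-linked genes that are active when the X is silent. Of 13 tested genes listed as retrogenes, Slc25a31 among them, 7 rose (53.8%) and 0 fell (median 2.53). Of 13 tested X-linked parents 12 fell (92.3%) and 0 rose (median -2.41). Among all tested genes 25.5% rose and 34.6% fell. Pgk1 and Pdha1 passed the level filter only through spermatogonia and Pgk2 only through pachytene, so the opposite call could not be seen for them. Of the pyruvate dehydrogenase pair Pdha1 lay at 9.85, 9.79 and 5.12 FPKM in the spermatogonia libraries and 0.0675, 0.0988, 0.353 and 0.07904 FPKM in the pachytene libraries, and Pdha2 at 3.82, 2.67 and 4.25 FPKM in the spermatogonia libraries and 108, 124, 74.98 and 124 FPKM in the pachytene libraries. Their differences were -2.83 (SE 0.33, adjusted p = 0.0011) and 4.504 (SE 0.30, adjusted p = 0.00035). Pgk1, the parent of Pgk2, lay at 1.75, 1.21 and 1.64 FPKM in the spermatogonia libraries and 0, 0, 0.2099 and 0 FPKM in the pachytene libraries, a difference of -1.28 (SE 0.20, adjusted p = 0.0029). Ddx3x, an RNA helicase gene, fell by 3.51 and its copy D1Pas1 rose by 3.29 from an already measurable 6.896 to 11.2 FPKM.

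In 4 further pairs the parent fell and the retrogene rose. Prps1 differed by -2.83 and Prps1l1 by 4.96, Gk by -0.75 and Gk2 by 6.001, Cetn2 by -1.88 and Cetn1 by 5.38, and the ribosomal protein genes Rpl10 by -1.97 and Rpl10l by 2.53, with all 8 genes called. The remaining 6 tested retrogenes did not pass the test, among them the 2 given here. Cstf2, a subunit of the polyadenylation machinery, fell by 2.75, whereas Cstf2t lay at 16.05 to 19.4 FPKM in spermatogonia and 22.3 to 40.05 FPKM in pachytene with a difference of 0.69 (SE 0.33, adjusted p = 0.12). Rpl39l, the copy of Rpl39, which was not tested, lay at 7.54, 7.85 and 7.37 FPKM in the spermatogonia libraries and 0.237, 0.493, 28.99 and 0.0579 FPKM in the pachytene libraries, and the difference of -1.62 (SE 0.70, adjusted p = 0.092) did not pass the test. Without library 3 it was -2.82 (adjusted p = 0.00047), a fall, so that the count of retrogenes that fell rests on that library. Reads that match a parent and its copy equally could have been assigned to either. The plot of parent and retrogene pairs gives 8 of them by library. Gk missed the threshold without pachytene library 1 (adjusted p = 0.073).

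**Figure D2:**
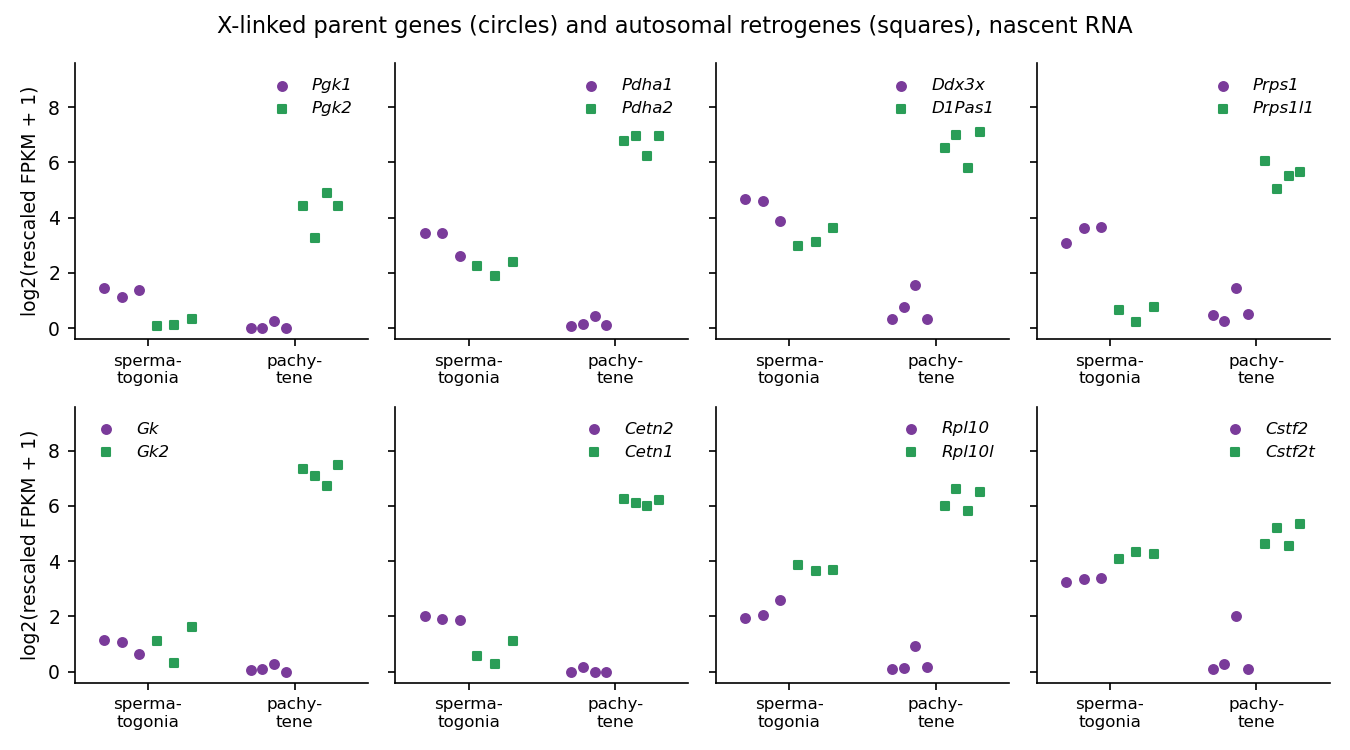
Nascent RNA of 8 X-linked parent genes (circles) and their autosomal retrogenes (squares) in the 3 spermatogonia and 4 pachytene libraries, as log2(rescaled FPKM + 1). In pachytene every retrogene lies above its parent in every library, and no parent exceeds 3.05 FPKM there (Cstf2 in library 3).

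Genes of the sperm axoneme, the motor of the tail, were higher in pachytene among those tested. All 39 tested of 42 listed rose, against 25.5% of all tested genes, with a median of 2.93 and a range of 0.87 to 6.14. Dnah8, a dynein heavy chain, lay at 0.362, 0.122 and 0.366 FPKM in the spermatogonia libraries and 49.5, 32.9, 29.5 and 40.99 FPKM in the pachytene libraries, a difference of 4.89 (SE 0.24, adjusted p = 0.00032). Ropn1l and Cfap65, proteins of the flagellum, rose by 5.49 and 5.17. Cfap65 held at most 0.332 FPKM in spermatogonia and at least 37.3 FPKM in pachytene. Members such as Dnah8 and Cfap65 passed the level filter only through pachytene, so a fall could not be seen for them. The count of 39 rests in part on such members.

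Of 33 listed genes of the acrosome and sperm surface only 18 reached the level filter, and 14 were listed at 0 in all 4 pachytene libraries. Among those tested 16 rose and 1 fell (88.9% and 5.56%, against 25.5% and 34.6% of all tested genes), with a median of 3.46. Adam3, a sperm surface protein, was listed at 0 in all 3 spermatogonia libraries and at 38.6, 12.2, 19.2 and 22.8 FPKM in the pachytene libraries. It passed the level filter only through pachytene, so a fall could not be seen. The protease inhibitor gene Spink2 of the acrosome and Adam2 rose by 4.92 and 4.32. Spaca6, a sperm-egg fusion gene, was the 1 that fell, from 0.554 to 1.44 FPKM to at most 0.0857 FPKM.

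Of 16 listed genes of late spermatids 6 reached the level filter. Of these 3 rose and 0 fell (50% and 0%, against 25.5% and 34.6% of all tested genes). Of the 16 listed, 7 were at 0 in every pachytene library. A listed 0 need not mean that a gene was silent, since the mitochondrial rows are at 0 too. The median of 1.02 was -0.19 under spike-in scaling. Actl7b, an actin-like gene, lay at 0 to 0.5501 FPKM in spermatogonia and 16.3 to 22.96 FPKM in pachytene and rose by 3.92. The transition protein gene Tnp2 lay at 0, 0 and 0.593 FPKM in the spermatogonia libraries and 1.96, 1.77, 5.17 and 1.62 FPKM in the pachytene libraries, and Hils1, a linker histone-like gene, at 0, 0 and 0 FPKM in the spermatogonia libraries and 2.302, 1.55, 0.437 and 2.62 FPKM in the pachytene libraries. Their differences of 1.43 and 1.36 passed the test at levels of a few FPKM. Both genes passed the level filter only through pachytene, so a fall could not be seen. Meiotic division genes had 5 rises and 2 falls among 14 tested (35.7% and 14.3%, against 25.5% and 34.6% of all tested genes), with a median of 0.79, or -0.52 under spike-in scaling. Tnp2 missed the threshold without spermatogonia library 3 (adjusted p = 0.051). Hils1 missed the threshold without pachytene library 1 (adjusted p = 0.060).

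Of these division genes Hspa2, a testis chaperone that helps activate the division kinase, lay at 19.03, 15.6 and 15.96 FPKM in the spermatogonia libraries and 351, 393, 46.4 and 372 FPKM in the pachytene libraries, a difference of 3.66 (SE 0.53, adjusted p = 0.0022); library 3 was far below the rest of its stage. Fbxo43, an inhibitor of the anaphase-promoting complex, lay at 0.477, 0.315 and 0.588 FPKM in the spermatogonia libraries and 45.2, 22.8, 21.4 and 40.8 FPKM in the pachytene libraries, a difference of 4.42 (SE 0.25, adjusted p = 0.00032). Cyclin A1 (Ccna1) was listed at 0 in the 3 spermatogonia libraries and at 9.03, 2.57, 7.83 and 2.902 FPKM in pachytene. Cyclin B1 (Ccnb1) and Mastl, the Greatwall kinase, fell by 1.82 and 1.36; without spermatogonia library 3 Ccnb1 fell by 0.94. Hspa2 missed the threshold without spermatogonia library 3 (adjusted p = 0.056). Mastl missed the threshold without spermatogonia library 3 (adjusted p = 0.071). Ccna1 missed the threshold without spermatogonia library 3 (adjusted p = 0.083).

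**Figure D3:**
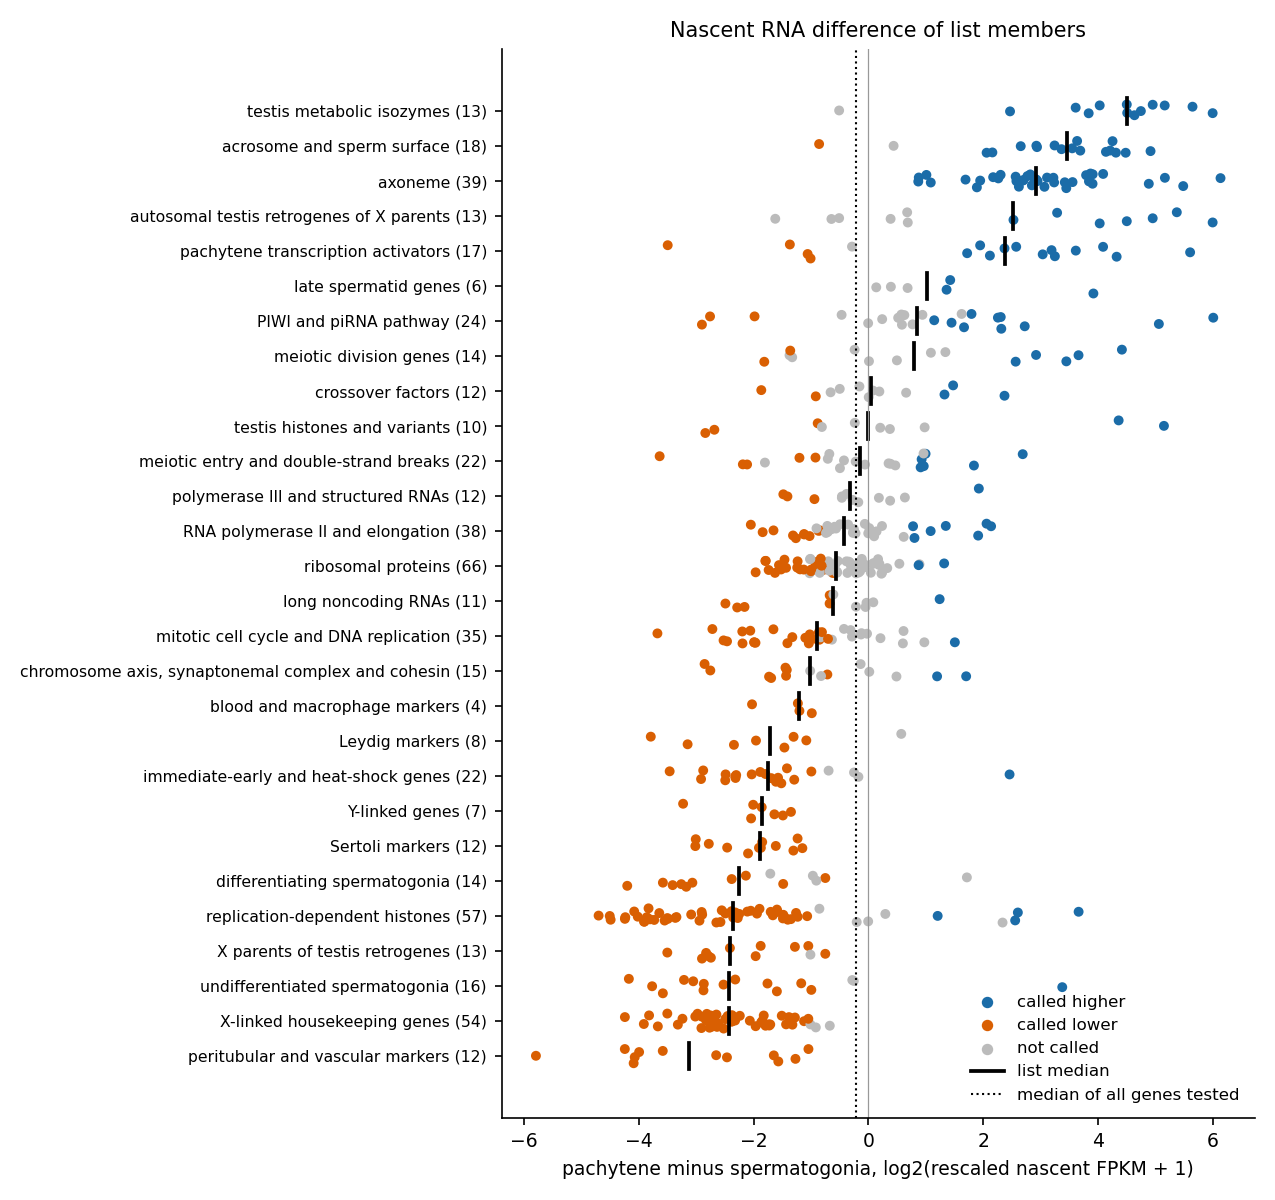
Pachytene minus spermatogonia difference of every tested member of the 28 lists, in log2(rescaled nascent FPKM + 1), with the number tested in brackets, the list median as a bar and the median of all genes tested as a dotted line (-0.22). Medians run from -3.12 for peritubular and vascular markers to 4.51 for testis metabolic isozymes; filled colours mark genes called higher or lower.

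X-linked genes were lower almost throughout. Of 516 tested 451 fell (87.4%), 18 rose and 47 were not called, against 27.8% to 41.2% lower on single autosomes. The median difference was -1.86 on the X and -0.18 over the autosomes. Of 422 protein-coding X genes 397 fell. Without animal 7 the count of lower X genes was 147, without animal 6 292 and without animal 8 227.

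As a share of the rescaled sum, X rows held 1.21, 1.21 and 1.21% in the spermatogonia libraries and 0.151, 0.122, 0.364 and 0.139% in the pachytene libraries. The stage means were 1.21% ± 0.0063 and 0.194% ± 0.0899 (SD, n = 2 animals), a ratio of 6.23, with a two-sided exact permutation p of 0.333, the smallest possible here. Library 3 held the largest X share of the pachytene libraries and less than any spermatogonia library. With the 20 largest rows left out the means were 4.49% and 0.645%.

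The fall covered widely used genes. Of 54 tested X-linked housekeeping genes 51 fell and 0 rose (94.4% and 0%, against 34.6% and 25.5% of all tested genes), with a median of -2.43. Members such as Pgk1 and Pdha1 passed the level filter only through spermatogonia, so a rise could not be seen for them. Hprt, a purine salvage enzyme, lay at 8.13, 10.2 and 12.8 FPKM in the spermatogonia libraries and 0.281, 0.184, 4.55 and 0.658 FPKM in the pachytene libraries, a difference of -2.61 (SE 0.38, adjusted p = 0.0023). The transcription co-factor gene Hcfc1 lay at 30.04, 29.2 and 29.01 FPKM in the spermatogonia libraries and 0.204, 0.491, 5.88 and 0.318 FPKM in the pachytene libraries, a difference of -3.92 (SE 0.39, adjusted p = 0.00072). Flna (filamin A), Rlim (a ubiquitin ligase) and Tbl1x (a co-repressor subunit) differed by -4.25, -3.82 and -3.67. In each of these genes the pachytene libraries lay below all spermatogonia libraries. Hprt missed the threshold without spermatogonia library 3 (adjusted p = 0.054).

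The X-linked genes with the highest spermatogonia levels were Pgrmc1, Vcp-rs, Morf4l2, Usp26 and Rbbp7. Pgrmc1, a haem-binding membrane protein, lay at 94.4, 99.9 and 78.8 FPKM in the spermatogonia libraries and 0.776, 1.89, 11.4 and 2.16 FPKM in the pachytene libraries, a difference of -4.55 (SE 0.33, adjusted p = 0.00037). Morf4l2, a chromatin protein, lay at 57.3, 55.97 and 37.9 FPKM in the spermatogonia libraries and 0.804, 1.14, 1.71 and 1.41 FPKM in the pachytene libraries, a difference of -4.402 (SE 0.30, adjusted p = 0.00035). Usp26, a testis deubiquitinase, and Rbbp7, a histone chaperone, fell by 4.002 and 3.87. Vcp-rs was different: it lay at 64.4, 68.1 and 54.04 FPKM in the spermatogonia libraries and 34.5, 44.8, 36.99 and 44.4 FPKM in the pachytene libraries, and the difference of -0.57 (SE 0.29, adjusted p = 0.13) did not pass the test. It is a related sequence of the autosomal Vcp, with which reads could be shared. Usp26 missed the threshold without spermatogonia library 3 (adjusted p = 0.050).

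Of the 18 X rows that rose 9 are annotated as pseudogenes and 5 carry Spin2 symbols, a family of spindlin copies on the X. Spin2e lay at 0.128, 0.0435 and 0.0933 FPKM in the spermatogonia libraries and 28.1, 7.39, 7.42 and 17.6 FPKM in the pachytene libraries, a difference of 3.68 (SE 0.25, adjusted p = 0.00035). Spin2f rose by 3.34, and the predicted genes Gm9050, Gm3757 and Gm2892 by 3.79, 3.49 and 3.37. Pachytene library 1 was the highest for Spin2e, Spin2f, Gm3757 and Gm2892. Such near-identical copies are uncertain, since reads could be split among them. Xist, the long RNA that silences the X in female cells, did not pass the level filter, with at most 1.29 FPKM.

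Y-linked genes followed the X. All 7 tested of 11 listed fell, against 34.6% of all tested genes, with a median of -1.86. Ddx3y, the Y copy of the helicase gene, lay at 12.7, 12.2 and 12.9 FPKM in the spermatogonia libraries and 0.132, 0.223, 1.91 and 0.113 FPKM in the pachytene libraries, a difference of -3.23 (SE 0.30, adjusted p = 0.00061). Uba1y, Usp9y and Eif2s3y differed by -2.05, -2.01 and -1.86. Over the whole chromosome 10 of 12 tested genes fell. On chromosome 13, which holds the largest histone cluster, 41.2% of tested genes fell, the highest share of the autosomes. Usp9y missed the threshold without spermatogonia library 3 (adjusted p = 0.063). Eif2s3y missed the threshold without spermatogonia library 3 (adjusted p = 0.070) and without pachytene library 1 (adjusted p = 0.070).

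**Figure D4:**
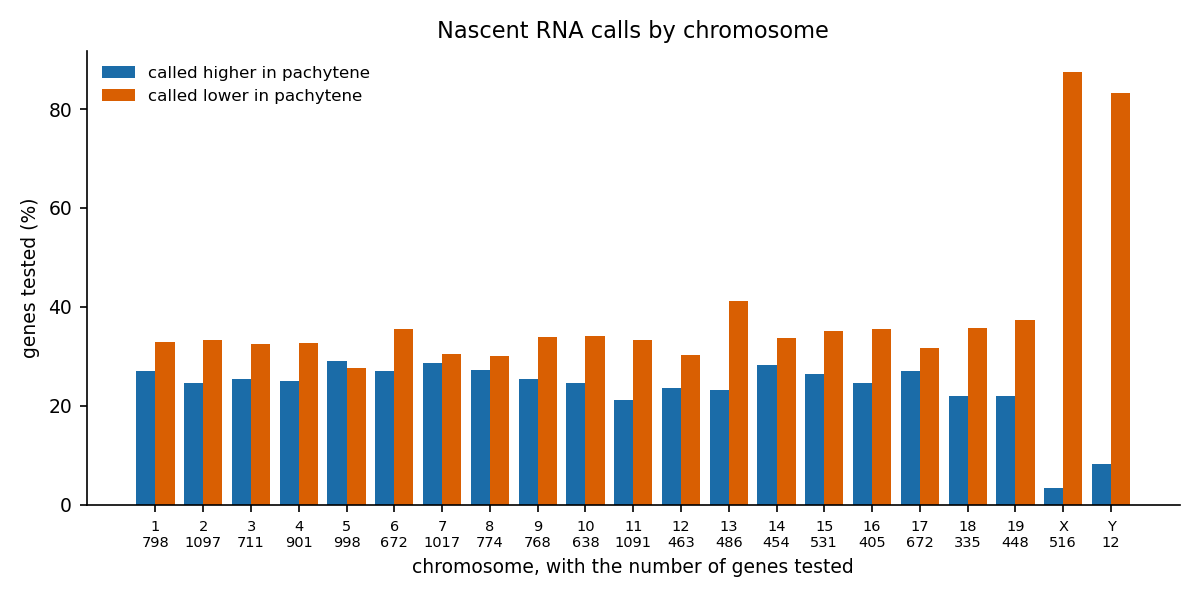
Percent of tested genes called higher (left bars) or lower (right bars) in pachytene nascent RNA on each chromosome, with the number of genes tested under its name. On the autosomes 27.8% to 41.2% were lower, against 87.4% on the X and 83.3% on the Y.

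Long noncoding transcripts were counted by annotated class. Of 1190 tested long noncoding genes 673 rose (56.6%) and 117 fell, with a median of 0.95 (-0.29 under spike-in scaling). Of 11093 protein-coding genes 20.6% rose and 39.7% fell, with a median of -0.41. By annotated class, 66.9% of 356 intergenic, 58.97% of 390 antisense and 72.7% of 44 bidirectional-promoter genes rose. Members such as 0610009L18Rik passed the level filter only through pachytene, so a fall could not be seen for them. How many did so was not counted, and the shares that rose rest in part on such members. Without animal 8 the number of long noncoding genes that rose was 444. Whether reads were counted by strand is not stated, so antisense genes cannot be told apart from the genes they overlap.

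Of 11 tested among 21 listed well-known long noncoding RNAs 1 rose and 5 fell (9.09% and 45.5%, against 25.5% and 34.6% of all tested genes). Under the median of ratios scaling 3 fell. Malat1, an abundant nuclear RNA, lay at 579, 627 and 252 FPKM in the spermatogonia libraries and 52.6, 106, 58.98 and 66.6 FPKM in the pachytene libraries, a difference of -2.49 (SE 0.47, adjusted p = 0.0059). H19, an imprinted RNA, and Snhg11, a small nucleolar RNA host, fell by 2.16 and 2.29. The 1 that rose was Miat, at 0 to 0.0562 FPKM in spermatogonia and 0.809 to 1.99 FPKM in pachytene and a difference of 1.24 (SE 0.19, adjusted p = 0.0029).

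Some of the rows that rose most lay close together in the genome. Of 273 rows higher by 4 log2 units or more 88 were not protein-coding, and 23 of these formed 7 loci of 3 or more rows with gaps under 50 kb, a grouping made after the values were seen. These rows were picked for their rise, so the gap between the summed levels of the stages was set by that choice. Summed over the rows of a locus, spermatogonia libraries held at most 7.07 FPKM and pachytene libraries 73.996 to 743 FPKM. The highest was on chromosome 6 (mm10, 81893818 to 81910800), where 1700097M23Rik, Mir7232, Mir468 and 1700009C05Rik are all annotated on the minus strand. There 1700097M23Rik lay at 1.99, 0.634 and 3.04 FPKM in the spermatogonia libraries and 305, 293, 170.1 and 334 FPKM in the pachytene libraries, a difference of 6.49 (SE 0.38, adjusted p = 0.00033). On chromosome 17 (27317035 to 27355799) the long noncoding Gm10505 lies beside Mir7214, Mir7216 and Mir7217. On chromosome 7 (73781429 to 73838898) Gm45006 and Gm21269, on opposite strands, rose by 6.46 and 6.19. Pachytene piRNA precursors are long noncoding transcripts of this kind, but the annotation used does not mark them.

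In the other 4 loci the spans were 17.2 to 64.98 kb. They lie on chromosome 2 (92529694 to 92594676, with Gm13817 and Gm13815), chromosome 5 (113320454 to 113337645, with 4930405N21Rik and Gm43353), chromosome 6 (127776084 to 127810718, with 4921513H07Rik and Gm42811) and chromosome 9 (67727717 to 67760230, with M5C1000I18Rik). Each reached 3 rows only with microRNA rows, in turn Mir7222, Mir7230, Mir7233, and Mir7241 with Mir7242. In every one of the 7 loci pachytene library 3 had the lowest sum of its stage, at 73.996 to 333 FPKM.

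Long noncoding RNAs that start back to back with a protein-coding gene were set beside that gene. Of 44 tested bidirectional-promoter RNAs 37 had a tested protein-coding partner on the other strand with a start within 1000 bases. Of these RNAs 28 rose (75.7%) and 1 fell, beside 72.7% that rose in the whole bidirectional-promoter class and 56.6% of all tested long noncoding genes. Of the partners 6 rose (16.2%), 6 fell (16.2%) and 25 were not called. Over all tested genes 25.5% rose and 34.6% fell. The median difference was 1.23 for the RNAs and -0.23 for the partners, and the RNA's difference was the larger in 35 of 37 pairs. Of all 38 such RNAs, with or without a tested partner, 29 rose; without spermatogonia library 3 this was 19, and without animal 6 or animal 8 it was 15 each. These pairs were chosen after the values of the class were seen. For RNAs such as 0610009L18Rik, which passed the level filter only through pachytene, a fall could not be seen.

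The actin gene Actg1 and the RNA 0610009L18Rik, with starts 136 bases apart, had the most unequal differences of the 3 pairs named here. Actg1 lay at 62.9, 65.9 and 46.5 FPKM in the spermatogonia libraries and 68.1, 91.3, 74.6 and 80.1 FPKM in the pachytene libraries, a difference of 0.51 (SE 0.30, adjusted p = 0.19) that did not pass the test. 0610009L18Rik lay at 0.918, 0.248 and 0.369 FPKM in the spermatogonia libraries and 33.01, 37.4, 30.3 and 20.8 FPKM in the pachytene libraries, a difference of 4.4004 (SE 0.25, adjusted p = 0.00032). Beside the amino acid transporter gene Slc7a5, which was not called at 32.5 to 47.3 FPKM in spermatogonia and 21.9 to 55.5 FPKM in pachytene, BC048644 rose by 3.43. Beside Micu2, a regulator of mitochondrial calcium that fell by 1.82, 3110083C13Rik rose by 1.23, or -0.17 under spike-in scaling.

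**Figure D5:**
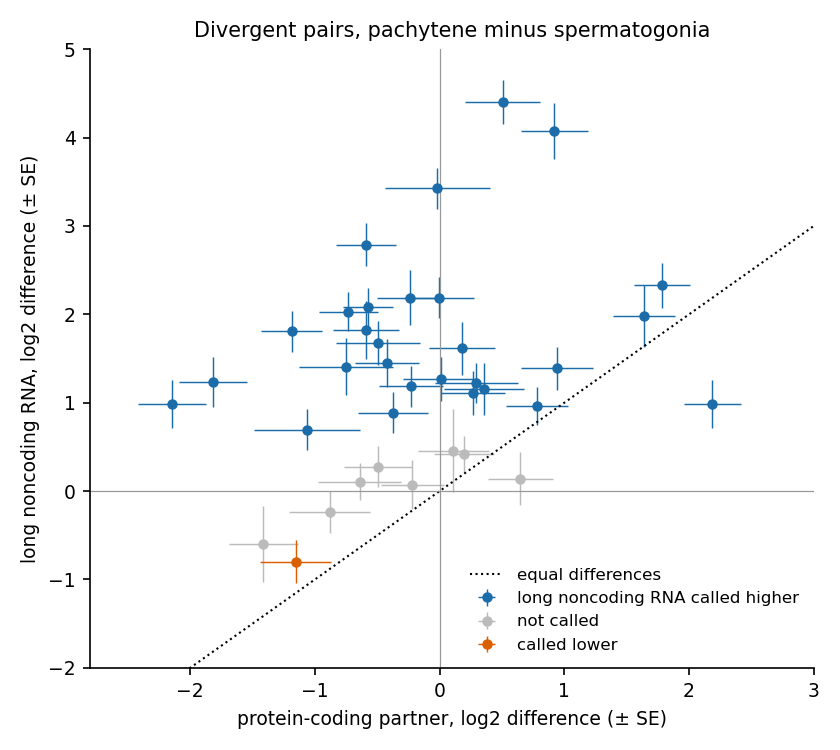
Pachytene minus spermatogonia difference of 37 bidirectional-promoter long noncoding RNAs against that of the protein-coding gene starting within 1000 bases on the other strand, in log2(rescaled nascent FPKM + 1) with standard errors. 35 of 37 points lie above the line of equal differences.

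Genes were also grouped by length and by number of exons. Protein-coding genes were split into quartiles of genomic span, up to 10.3, 24.8 and 57.4 kb and beyond. The share that fell was 35.8%, 37.1%, 39.7% and 46.1% from the shortest to the longest, and the share that rose was 25.9%, 20.5%, 18.2% and 17.9%. Single-exon genes of the autosomes other than histones rose in 46.1% of 271 cases, against 20.8% of 10331 genes with several exons. In total RNA the median difference fell from 0.11 in the shortest to -0.33 in the longest quartile, beside -0.24 and -0.66 in nascent RNA.

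Immediate-early and heat-shock genes, which respond within minutes to stimuli and to handling of cells, mostly fell. Of 22 tested 18 fell and 1 rose (81.8% and 4.55%, against 34.6% and 25.5% of all tested genes), with a median of -1.74. The AP-1 genes Jund and Fos fell by 3.47 and 2.92, and the inducible chaperone Hspa1b by 2.88. Fos lay at 9.998, 7.89 and 5.46 FPKM in the spermatogonia libraries and 0, 0.0793, 0.161 and 0 FPKM in the pachytene libraries. Summed Sertoli markers, at 52.4 to 84.8 FPKM in spermatogonia and 2.297 to 5.13 FPKM in pachytene, fell between the same libraries, and their part in the falls of this list was not tested. Dnajb1, a co-chaperone, was the 1 that rose, at 3.93 to 7.79 FPKM in spermatogonia and 27.5 to 47.04 FPKM in pachytene. Ribosomal protein genes fell in 23 of 66 tested and rose in 2 (34.8% and 3.03%, against 34.6% and 25.5% of all tested genes), with a median of -0.57; 14 fell under the median of ratios scaling.

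RNA polymerase II and its elongation factors had 7 rises and 10 falls among 38 tested (18.4% and 26.3%, against 25.5% and 34.6% of all tested genes), with a median of -0.42. Polr2a, the largest subunit, lay at 61.4, 53.2 and 44.7 FPKM in the spermatogonia libraries and 53.7, 54.4, 54.7 and 60.99 FPKM in the pachytene libraries, with overlap and a difference of 0.14 (SE 0.28, adjusted p = 0.68). The general factors Tbp and Gtf2b rose by 2.14 and 2.06, while the subunit Polr2h and the elongation factor Aff1 fell by 2.05 and 1.84. Tbp lay at 0.795, 0.473 and 0.567 FPKM in the spermatogonia libraries and 7.39, 5.81, 4.63 and 6.58 FPKM in the pachytene libraries. Of 12 tested small structured RNAs 1 rose and 3 fell (8.33% and 25%, against 25.5% and 34.6% of all tested genes). The U2 row Rnu2-10 rose by 1.93. Among those that fell was Rmrp, the RNA of an RNase, at -1.48. Rmrp missed the threshold without spermatogonia library 2 (adjusted p = 0.056) and without spermatogonia library 3 (adjusted p = 0.22).

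Promoters were read for motifs of factors known from these stages, in a window from 250 bases before to 50 after each start (RefSeq, GRCm38.p6), with 1 promoter for 9205 of the 14248 tested rows. The MYB motif TAACNG, searched on both strands, was found in 27.2% of 2108 promoters of genes that rose, 18.4% of 3660 of genes not called and 15.7% of 3437 of genes that fell, beside 19.4% of all. Among the 344 genes that rose by 3 log2 units or more it was 35.5%, and among the 232 that fell by 3 or more 19.4%, the share of all promoters. The other motifs differed less. CCAAT, bound by NF-Y, was in 40.7% of promoters of genes that rose and 37.6% of those that fell, the CRE motif TGACGTCA in 3.04% and 3.08%, and the E2F motifs TTTCCCGC or TTTGGCGC in 2.704% and 3.32%. Median GC content was 58.7% for promoters of genes that rose and 62.7% for those that fell, and its part in the motif shares was not tested.

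The promoters of 4 genes are shown to place the motif, in lower case with each TAACNG match on either strand in capitals. They are those of Piwil1 (chr5:128735996-128736295, plus strand, 2 matches), of Gk2 (chr5:97456974-97457273, minus strand, 1 match), of the predicted gene Gm14244 (chr2:127691604-127691903, plus strand, 1 match) and, as a strongly risen gene with 0 matches in the window, of Pgk2 (chr17:40208560-40208859, minus strand).
Piwil1: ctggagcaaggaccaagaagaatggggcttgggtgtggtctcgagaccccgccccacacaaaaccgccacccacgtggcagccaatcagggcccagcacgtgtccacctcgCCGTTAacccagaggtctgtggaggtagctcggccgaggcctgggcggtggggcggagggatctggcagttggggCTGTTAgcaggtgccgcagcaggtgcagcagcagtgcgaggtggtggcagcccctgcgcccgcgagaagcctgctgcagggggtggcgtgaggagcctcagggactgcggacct
Gk2: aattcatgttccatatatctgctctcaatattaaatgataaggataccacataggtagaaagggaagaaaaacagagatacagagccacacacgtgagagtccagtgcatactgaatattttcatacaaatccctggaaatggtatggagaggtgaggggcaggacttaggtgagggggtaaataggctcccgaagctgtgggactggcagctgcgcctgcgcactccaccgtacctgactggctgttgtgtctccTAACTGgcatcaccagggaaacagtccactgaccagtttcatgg
Gm14244: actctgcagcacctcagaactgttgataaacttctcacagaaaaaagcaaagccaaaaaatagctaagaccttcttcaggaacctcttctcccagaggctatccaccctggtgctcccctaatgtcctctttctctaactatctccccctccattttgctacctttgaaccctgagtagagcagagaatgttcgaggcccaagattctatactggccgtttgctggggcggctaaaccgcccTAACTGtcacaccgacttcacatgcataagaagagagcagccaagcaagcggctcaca
Pgk2: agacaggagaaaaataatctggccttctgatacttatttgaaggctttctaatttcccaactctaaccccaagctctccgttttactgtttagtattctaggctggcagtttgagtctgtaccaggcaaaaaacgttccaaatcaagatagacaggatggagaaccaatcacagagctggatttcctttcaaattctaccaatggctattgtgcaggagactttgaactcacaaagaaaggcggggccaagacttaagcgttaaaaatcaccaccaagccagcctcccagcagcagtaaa
All sequences read 5′ to 3′ on the strand of the gene. Gm14244 lay at 2.12, 0.4895 and 1.57 FPKM in the spermatogonia libraries and 265, 271, 90.7 and 245 FPKM in the pachytene libraries, a difference of 6.42 (SE 0.34, adjusted p = 0.00032). Gk2, a glycerol kinase retrogene, lay at 1.16, 0.2402 and 2.06 FPKM in the spermatogonia libraries and 161, 135, 106 and 179 FPKM in the pachytene libraries. A match is a run of letters and no measurement of binding.

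The largest falls were mostly of genes known from somatic cells of the testis. Cyp26b1, which breaks down retinoic acid, lay at 227, 159.9 and 94.8 FPKM in the spermatogonia libraries and 0.964, 1.32, 1.34 and 1.07 FPKM in the pachytene libraries, a difference of -5.97 (SE 0.39, adjusted p = 0.00033). Acta2, the smooth muscle actin of peritubular cells, lay at 91.5, 80.1 and 44.2 FPKM in the spermatogonia libraries and 0.0722, 0.156, 0.293 and 0 FPKM in the pachytene libraries, a difference of -5.797 (SE 0.37, adjusted p = 0.00033). Myl9 and Sparc, of smooth muscle and of the extracellular matrix, fell by 4.67 and 4.76, the matrix genes Col4a4 and Adamts5 by 4.53 and 4.59, and the enzyme genes Glul and Plpp3 by 5.18 and 5.22. Fgl2 fell by 5.599. Hist1h1a and the X-linked Pgrmc1, described above, were also among the 12 largest falls.

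Markers of somatic cells were measured over whole lists. Every tested Sertoli (12), peritubular and vascular (12) and blood and macrophage (4) marker fell, as did 7 of 8 Leydig markers. Of all tested genes 34.6% fell. Summed over the lists, Sertoli markers held 52.4 to 84.8 FPKM in spermatogonia and 2.297 to 5.13 in pachytene libraries, and Leydig markers 34.1 to 74.6 and 2.12 to 5.79. Peritubular and vascular markers held 132 to 239 FPKM in spermatogonia and 1.59 to 3.89 in pachytene libraries, and blood and macrophage markers 12.2 to 19.1 and 1.46 to 4.37. Cldn11 of Sertoli cells lay at 11.5 to 12.8 FPKM in spermatogonia and 0.395 to 0.957 FPKM in pachytene, Myh11 of smooth muscle at 14.3 to 31.2 FPKM in spermatogonia and 0 to 0.0889 FPKM in pachytene, and Hsd3b1 of Leydig cells at 9.31 to 20.7 FPKM in spermatogonia and 0 to 0.201 FPKM in pachytene. Cldn11, Myh11 and Hsd3b1 passed the level filter only through spermatogonia, so a rise could not be seen for them. The part of these somatic cells in the other falls was not tested. The immediate-early genes, Malat1 and H19 also fell between the same libraries.

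The same stages were compared in total RNA of other animals, numbered 1 to 4, with the same steps. There 5809 of 17971 tested genes were higher (32.3%) and 5526 lower (30.7%), 63.1% in all. Over the 13993 genes tested in both assays, 7023 were called in the same direction, which was 83.2% of the genes called in nascent and 77.9% of those called in total RNA, and 45 were called in opposite directions. Pearson's r of the differences across these genes, which are not independent, was 0.91. The median difference of X-linked genes was -2.14 in total and -1.86 in nascent RNA.

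limma's test of the difference between the 2 assays' differences called 108 genes with a higher (0.593%) and 185 with a lower (1.02%) nascent than total difference, 1.61% of 18226, with 4051 at an unadjusted p under 0.05. The counts moved with single libraries. Leaving out a nascent library gave 0 and 0 without nascent spermatogonia library 3, 14 and 6 without nascent pachytene library 1, 61 and 97 without nascent pachytene library 2 and 36 and 43 without nascent pachytene library 3. Leaving out a library of total RNA gave 132 and 309 without total spermatogonia library 1, 175 and 320 without total spermatogonia library 2, 417 and 213 without total spermatogonia library 3, 32 and 14 without total pachytene library 1 and 29 and 23 without total pachytene library 4. Nxt1, an mRNA export factor, lay at 3.97, 3.78 and 5.96 FPKM in the spermatogonia libraries and 59.1, 49.9, 49.4 and 74.9 FPKM in the pachytene libraries in nascent RNA and at 13.1, 10.1 and 17.7 FPKM in spermatogonia and 4.61, 4.54, 5.34 and 5.48 FPKM in pachytene libraries in total RNA. Its nascent difference exceeded its total difference by 4.68 (SE 0.41, adjusted p = 0.012). Fam107b lay at 4.69 to 5.62 FPKM in spermatogonia and 70.5 to 122 FPKM in pachytene in nascent RNA and differed by -0.37 in total RNA, a contrast of 4.26 (SE 0.36, adjusted p = 0.012).

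In the other direction stood Morn5, a protein of the sperm tail, which was listed at 0 in the spermatogonia libraries and at 11.9, 4.66, 2.26 and 6.61 FPKM in the pachytene libraries of nascent RNA, against 0, 0 and 0 FPKM in spermatogonia and 110.4, 138, 98.97 and 107 FPKM in pachytene libraries in total RNA, a contrast of -4.12 (SE 0.28, adjusted p = 0.0082). Rnf138, a ubiquitin ligase, lay at 20.1, 26.6 and 27.9 FPKM in the spermatogonia libraries and 8.37, 16.6, 14.9 and 13.7 FPKM in the pachytene libraries in nascent RNA and fell by 0.92, while in total RNA it rose by 3.17. Eps15, an endocytic adaptor, likewise fell by 1.84 and rose by 1.46. The filter bounds were seen in Saxo2 and Plat, whose second-highest libraries held 1.0002 and 1.0009 FPKM and which were tested, and in Fam181b and Nt5c at 0.9999 and 0.9997 FPKM, which were not. Rnf138 missed the threshold without spermatogonia library 2 (adjusted p = 0.060) and without spermatogonia library 3 (adjusted p = 0.15) and without pachytene library 1 (adjusted p = 0.10) and without pachytene library 4 (adjusted p = 0.060). Eps15 missed the threshold without pachytene library 1 (adjusted p = 0.12).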

How the data were processed

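Nascent RNA was measured as EU-labelled RNA in 7 libraries of 2 stages, and total RNA of other animals in 7 more. The authors deposited FPKM values, and per the submitters' processing notes reads were aligned to mm10 with STAR 2.5.2a and assembled with StringTie, whose version, annotation and use of strand are not given in the sources used here. The authors also deposited a 5S-corrected table, a signal equal to the nascent FPKM times 1 constant per library, used only as an alternative. Spike-in rows (92 of 52323) were dropped and each library was rescaled to the same sum. Rows at or above 1 in 2 or more libraries were kept, log2(value + 1) was averaged per animal, and limma 3.58.1 (trended eBayes, R 4.3.3) was fitted on 2 against 2 animals with Benjamini-Hochberg adjustment, a gene being called at an adjusted p under 0.05. The code was tested on simulated data. Since no animal gave both of the compared stages, p-values rest on the spread between 2 animals a stage. A gene that passed the level filter through 1 stage only could hardly be called in the other direction, which bears on all list counts. Symbols were matched to the GENCODE annotation for 47885 rows (91.5%), and all 37 mitochondrial rows are listed at 0.

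Depth was implied from the steps of low FPKM values, of which 38.1% to 46.04% fell within 0.05 of a whole read, too few to recover counts. Named were the 12 largest rises and falls with no overlap of the stages and a mean of at least 5 FPKM, up to 4 members of each list, the rows with the largest share of the sum, the highest X-linked genes, X-linked genes that rose and the largest contrasts of the assays, without predicted genes in the first and last of these. Hprt, Gm14244, the genes of the noncoding loci and of the divergent pairs were picked after their values were seen. The members and lists were chosen with earlier results of these data known. Some genes that the naming rule picks are not reported here. Alternatives changed the pseudocount, filter, scaling, replicate unit and libraries, and rescaling without short rows and list counts without pachytene library 3 were added after seeing the data.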

Additional observations from a re-analysis of the deposited data

Results flagged for a closer look

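In 47 of 160 genes named above, 1 of the 4 pachytene libraries lay apart from the others by Dixon's test at the 95% level, which chance passes in about 1 of 20 groups. In 39 of these it was library 3. Library 3 was the low one for Piwil1 (18.7 FPKM against 96.3 to 102), Hspa2 (46.4 FPKM against 351 to 393) and Gm14244 (90.7 FPKM against 245 to 271). It was the high one for the rest. Among genes of early meiosis and of spermatogonia, the rescaled FPKM in library 3 were Prdm9 at 12.04, Dmc1 at 20.1, Tex15 at 35.1, Meiob at 10.04, Smc3 at 6.33, Rad21 at 4.697, Dmrt1 at 4.04, Sall4 at 2.53, Sox3 at 2.001, Gfra1 at 0.834, Kit at 0.944, Ccnd2 at 1.496, Mcm4 at 2.58 and Mcm2 at 1.16, where the highest value of the other 3 pachytene libraries was 4.505 (Meiob). Among sex-linked genes they were Pgrmc1 at 11.4, Usp26 at 12.6, Hcfc1 at 5.88, Hprt at 4.55, Taf7l at 20.5, Rbbp7 at 3.16, Cstf2 at 3.05, Prps1 at 1.74, Pdha1 at 0.353, Rpl10 at 0.892, Pgk1 at 0.2099, Xist at 1.29, Ddx3y at 1.91, Usp9y at 2.55 and Eif2s3y at 2.74, with at most 2.16 (Pgrmc1) in the other 3. The remaining ones were Ldhc at 121, Rpl39l at 28.99, Hist1h1c at 6.59, Tnp2 at 5.17, Jund at 2.41, Ccnb1 at 0.671 and Hspa1b at 0.369. The X share of library 3, 0.364% of the rescaled sum, lay apart from 0.122% to 0.151% in the same way. What sets library 3 apart was not tested. Library 1 lay apart for Hsf2 (0.196 FPKM against 0.446 to 0.46005). Library 2 lay apart for Uba1y (0.0606 FPKM against 0), Hsd3b1 (0.201 FPKM against 0), Cetn2 (0.113 FPKM against 0) and Plat (0 FPKM against 0.0605 to 0.07096). Library 4 lay apart for Gm10800 (6471 FPKM against 117 to 233), Gm9050 (24.5 FPKM against 15.6 to 17.01) and Polr2a (60.99 FPKM against 53.7 to 54.7).

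In limma's test of the nascent against the total difference with Benjamini-Hochberg adjustment, the nascent difference was higher for Fam107b by 4.26 and Nxt1 by 4.68. It was lower for Morn5 (-4.12), Rnf138 (-4.09) and Eps15 (-3.303), all on the log2 scale. All 5 calls were lost without nascent spermatogonia library 3 (adjusted p = 0.050 to 0.14). The Eps15 call was also lost without nascent pachytene library 1, 2, 3 or 4 (adjusted p = 0.12, 0.064, 0.053 and 0.050). Without total pachytene library 1 or 4 the calls of Eps15 (adjusted p = 0.057 and 0.051) and Fam107b (0.064 and 0.18) were lost. Nascent and total libraries came from different animals and only the total libraries were depleted of ribosomal RNA, so assay and animal cannot be told apart.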

How the results depend on the processing

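Spike-in scaling left 0 genes called higher and 0 lower in nascent RNA, and so 0 X-linked genes lower and 0 long noncoding and 0 divergent RNAs higher. The 5S-corrected table, which holds 6 of the 7 libraries, gave 1464 higher and 1582 lower genes, 300 X-linked lower, 324 long noncoding higher and 10 divergent RNAs higher. Leaving out 1 library or animal gave 2023 to 3830 higher and 1918 to 5130 lower nascent genes, 147 to 467 X-linked genes lower, 444 to 688 long noncoding and 15 to 29 divergent RNAs higher. In total RNA it gave 3593 to 5768 higher and 1272 to 5499 lower genes, the fewest without animal 2 and without animal 3. With 1 animal left in a stage, its spread was taken to be that of the other stage. For the nascent minus total difference the ranges were 0 to 417 higher and 0 to 320 lower genes. That test also moved with every other setting tried: 10 and 2 genes with a pseudocount of 0.1, 389 and 1304 with 5, 68 and 31 under the median of ratios, and 1058 and 1891 with libraries as separate samples. The median of ratios moved the meiotic division genes that rose to 8, the ribosomal protein genes that fell to 14 and the listed long noncoding RNAs that fell to 3, and without pachytene library 3, 3 genes of meiotic entry rose. With libraries as separate samples the X share differed by -1.01 and the ribosomal share by -3.35 percentage points. Each had an exact permutation p of 0.0286, the smallest possible there, which counts libraries of the same animal as replicates. With animals as the units the exact permutation p of each was 0.333. The sign of the difference turned under spike-in scaling for Uhrf1 (-0.14), Sycp2 (-0.15), Syce1 (-0.53), Cntd1 (-0.074), 3110083C13Rik (-0.17), Polr2a (-1.64), Cstf2t (-1.03) and Actg1 (-1.304). It turned under the median of ratios for Gm23935 (0.23), Sycp3 (0.073) and Slc7a5 (0.22), and in the 5S-corrected table for Gm23935 (0.27) and Slc7a5 (0.34). Polr2a turned without rescaling (-0.18) and without ribosomal and short rows (-0.028). Of these genes only Uhrf1, Sycp2, Syce1, Cntd1 and 3110083C13Rik had been called. Leaving out 1 library or animal gave -0.15 to 0.12 for Gm23935, -0.57 to 0.29 for Sycp3, -0.033 to 0.32 for Polr2a and -0.53 to 0.50 for Slc7a5. Of 145 named genes called, 131 kept call and direction under every change of pseudocount, filter, scaling or replicate unit other than spike-in scaling and the 5S-corrected table, while 132 lost the call under the former and 28 in the latter. The cause was not tested. The replicate numbers did not pair the stages: same-numbered libraries had correlations of their deviations of 0.077, -0.04 and 0.021. With the number as a replicate block 3626 genes were higher and 5087 lower, 1 named gene lost its call, and Sycp3, not called, turned to 0.21. At 1 FPKM a gene of 1500 bases rests on 7.69 to 15.3 reads, which limits what can be seen of genes near the filter.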
